A study of Arabidopsis thaliana with 8 samples.

Results

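The proteasome is the protease that breaks down proteins tagged with ubiquitin. Its 20S core is a barrel of alpha and beta rings, with the proteolytic sites on beta subunits inside. The 19S regulatory particle caps the barrel, and its ATPases (RPT subunits) and non-ATPases (RPN subunits) bind, unfold and feed in the tagged protein. Most Arabidopsis subunits are encoded by a pair of similar genes. N6-methyladenosine (m6A) is a modified adenosine in messenger RNA, made by a methyltransferase complex that contains MTA and found mainly near the end of plant transcripts.

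The members described here are the nuclear protein-coding genes whose RefSeq product text contains the word proteasome, 45 of 27444. Of these, 28 are named in the annotation as subunits of the 20S core or the 19S particle. A further 8 are annotated as an activator, assembly or maturation factors, or inhibitor-like proteins. The remaining 9 came in through the PCI domain, a fold named after the proteasome, or the phrase "proteasome family": 4 are subunits of the COP9 signalosome, a relative of the 19S lid, 1 is EER5, a protein of ethylene signalling, and 4 have no symbol. For the 4 without a symbol the annotation does not say whether they belong to the proteasome, so the counts for the 19S particle cover the genes annotated to it and may miss some. The text rule also misses true subunits, because some product texts lack the word, and 19 of those with a symbol are given apart further down.

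The study profiled m6A by miCLIP-seq, in which an antibody to m6A is fixed to RNA with ultraviolet light and the bound RNA is sequenced. The mutant plants were ABI3:MTA (mta), in which MTA is driven by the ABI3 promoter. That promoter is active mainly in embryos, and the lists do not show how much MTA the leaves still had. They were set against wild type (WT). All were Col-0, grown at 22 °C in cycles of 16 h light and 8 h dark, and leaves 5 to 9 were harvested at an age of 4 weeks, 4 h into the light period. Each genotype had 2 m6A-bound libraries with a deposited peak list, and whether replicates were separate plants is not stated.

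The lists held 1934 and 2092 peaks in mta replicates 1 and 2, and 8973 and 6584 in WT replicates 1 and 2. They give no read counts, so depth is unknown, and a gene without a peak may be unmethylated, weakly expressed or under the calling threshold. RNA levels were not measured in these lists, and their part in any count below was not tested. The leaf label could not be checked this way: 0 of 11 leaf mesophyll marker genes and 0 of 12 embryo and seed genes had a peak in any list, as was the case for 0 of 4 guard cell and 1 of 2 phloem genes. Over all protein-coding genes, 1596 ± 75.0 had a peak in mta and 6505 ± 1314 in WT (SD, n = 2 each; exact two-sided permutation p = 0.333, the smallest that 2 against 2 libraries allow). For the members no test between genotypes is given, because they were chosen with results of these data known.

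Sequences around the regions of members show how the known m6A consensus lies in them. The motif RRACH, where R stands for a purine and H for any base but G, was looked for in the sense direction within 50 nt of the midpoint of the highest-ranked 3' UTR peak of WT replicate 1. The first set below covers a core subunit, a maturation factor and another core subunit whose matched site also lies inside an mta peak. The next set gives examples of members with the match in a WT peak and no mta peak over it. The search covered the 21 members that had an mta peak or were among the 12 ranked highest in WT. Of these, 14 had a match, and not all are shown. Capitals mark the RRACH match nearest to the midpoint, in DNA letters of the RefSeq copy of TAIR10 (TAIR10.1), with 12 nt on each side.

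PAB1 (chr1:5625537-5625565, plus strand): tagtttgttgctGAACAcaagctgagtgt
AT1G67250 (chr1:25163735-25163763, minus strand): ctcatcgtgtatGAACTtatttcaacctt
PAE2 (chr3:4766453-4766481, plus strand): ttccggttctctAAACCaaaaattagttt
AT2G32730 (chr2:13885530-13885558, plus strand): aggcagagagaaAAACAgatctttgaact
AT3G02200 (chr3:409056-409084, plus strand): aaacatatgcggAGACTtttcctatacat
PAG1 (chr2:11528414-11528442, minus strand): ttttgtctggagGGACAgttgttgcagtt
PAD2 (chr5:26437327-26437355, minus strand): ttggcaaaagaaGAACCtgaccccatcgt

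Several members with a region in every list had no RRACH match in that window. They did hold URUAY, where Y stands for a pyrimidine, a plant motif reported near m6A, which is in capitals in the lines below. Each URUAY match shown lay inside the peak of WT replicate 1, but only that of FUS5 lay inside the 3' UTR peaks of every list. The PBE1 match lay outside the peaks of mta replicate 2. The matches of AT1G48170 and PBC2 lay outside all mta peaks, and that of AT1G48170 also outside the WT replicate 2 peak. PAE1 and PAA2, which had no mta peak, held neither motif in that window.

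FUS5 (chr1:387374-387402, minus strand): ggattttcaactTGTATaagatcctctgt
PBE1 (chr1:4454713-4454741, plus strand): tttgtggtagtaTATACtgagttgtctct
AT1G48170 (chr1:17789678-17789706, plus strand): tcctacccttttTATACggaaatttgtga
PBC2 (chr1:29098300-29098328, plus strand): tcgatcattctaTGTACcttgttgtttct

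Most proteasome genes carried a called m6A-bound region in wild-type leaves. In mta, 12 and 10 of the 45 genes had a peak in replicates 1 and 2, and in WT 39 and 29 of them had one. Every library of mta lay below every library of WT in these lists as deposited. With each list shortened to its 1934 highest-scoring peaks, 12 and 8 members had a peak in mta and 14 and 13 in WT. With scores of at least 50, 3 and 6 did in mta and 27 and 6 in WT, so that mta replicate 2 and WT replicate 2 were equal. This cut bears unequally on the lists. In WT replicate 2 the highest scores were 58 on the plus and 50 on the minus strand, with a median of 29 on each. In mta replicate 2 the median scores were 50 and 53.5. With shortened lists, a peak in both WT lists was found for 15.6% of members and 4.34% of all genes. For either mta list these shares were 31.1% and 8.43%. With scores of at least 50, they were 13.3% and 2.14% for both WT lists and 13.3% and 3.76% for either mta list. In the lists as deposited, the shares of all protein-coding genes with a peak were 5.62% and 6.01% in mta and 27.1% and 20.3% in WT. A peak in both WT lists was found for 29 members (64.4%, Clopper-Pearson 95% interval 48.8 to 78.1%), against 18.9% of all protein-coding genes. A peak in either mta list was found for 16 members (35.6%, interval 21.9 to 51.2%), against 8.58% of all, and a peak in both for 6 (13.3%), against 3.05%. A peak in all 4 lists was found for 5 members, PAB1, PBE1, PBC2, AT1G48170 and FUS5, against 1.94% of all genes. The 16 members with an mta peak become 10 without mta replicate 1 and 12 without mta replicate 2. Of the 39 members with a peak in WT replicate 1, 10 had none in WT replicate 2 (25.6%), against 30.1% of all genes with a peak in WT replicate 1.

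**Figure D1:**
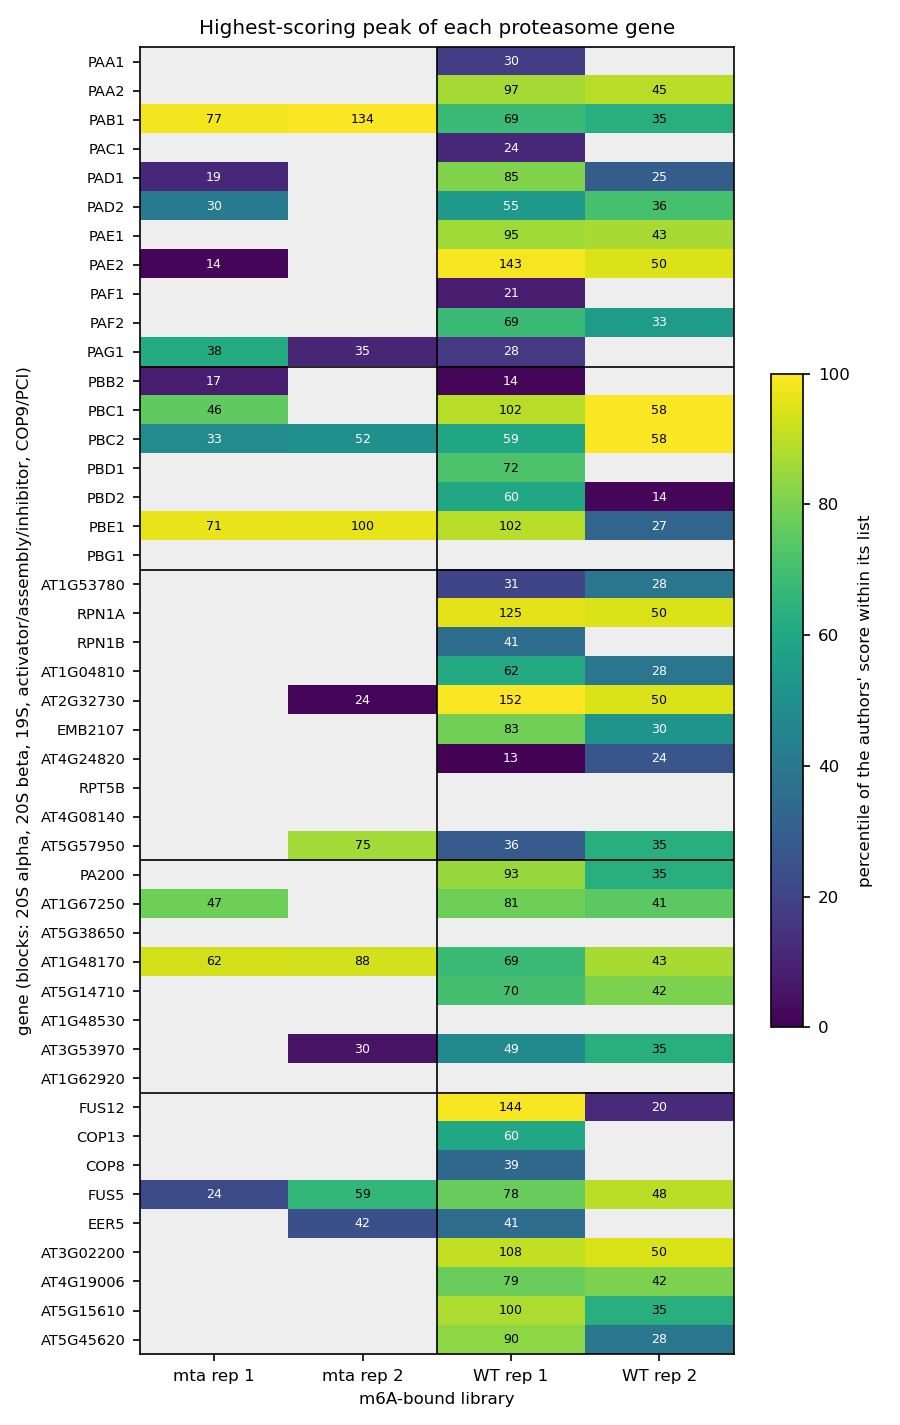
Highest-scoring peak of each of the 45 genes (rows, in 5 blocks) in the 4 m6A-bound libraries (columns). Numbers are the authors' scores, colour is the percentile of that score within its own list, and grey means no peak; WT replicate 1 has a peak in 39 rows and mta replicate 2 in 10.

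Of the 29 members with a peak in both WT lists, 16 had none in mta (55.2%, interval 35.7 to 73.6%), against 74.1% of the 5194 genes with peaks in both WT lists. This share changed when the lists were cut, and few members then remained. With the shortened lists, 7 members had a peak in both WT lists and 5 of them had no mta peak (71.4%, against 70.4% of all genes). With scores of at least 50, a cut near the highest scores of WT replicate 2, the numbers were 5 of 6 (83.3%, against 80.1%). The members' share was thus below that of all genes in the lists as deposited and slightly above it under both of these settings. With 7 and 6 members left, the order under these settings rests on few genes and was not tested. Every one of the 16 members with an mta peak also had a WT peak, and the same held for 72.3% of all genes with an mta peak.

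All subcomplexes had regions in WT and in mta. A peak in both WT lists was found for 7 of 11 alpha-ring genes, 4 of 7 beta-ring genes, 7 of 10 genes of the 19S particle, 5 of 8 activator, assembly and inhibitor genes, and 6 of 9 COP9 signalosome and PCI genes. In at least 1 mta list, a peak was found for 5 of the 11 alpha-ring genes, 4 of the 7 beta-ring genes, 2 of the 10 genes of the 19S particle, 3 of the 8 activator, assembly and inhibitor genes and 2 of the 9 COP9 signalosome and PCI genes. Among the 10 genes of the 19S particle, 0 had a peak in mta replicate 1 and 2 in replicate 2. Over all protein-coding genes, the shares were 5.62% and 6.01% in mta replicates 1 and 2. They were 8.58% in either mta list and 18.9% in both WT lists. The groups are small, and the difference between them was not tested.

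**Figure D2:**
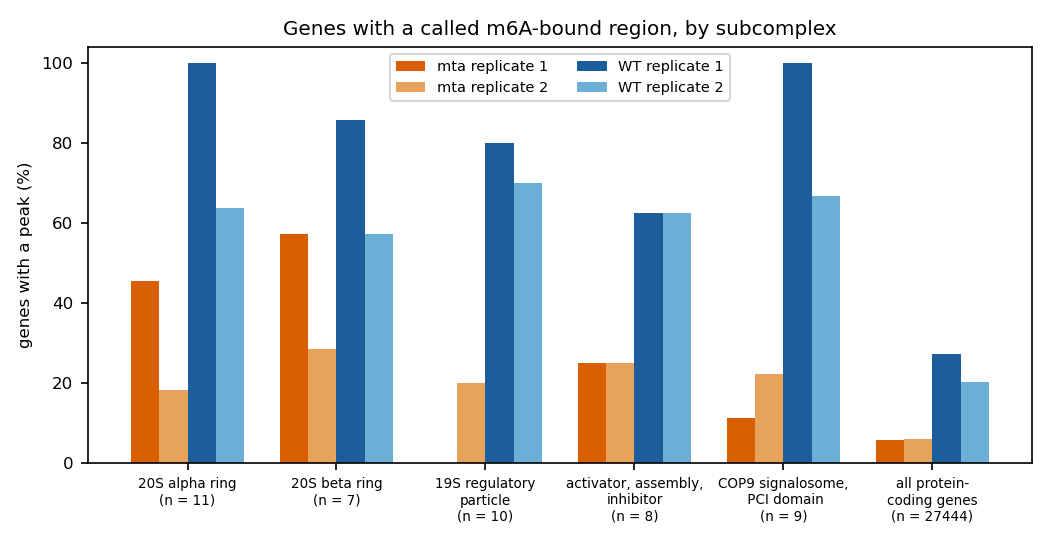
Share of genes with a peak (y axis, percent) in each subcomplex and over all 27444 protein-coding genes, with 1 bar per library (orange mta, blue WT). In every subcomplex the WT bars stand at or above 57%, and the bars over all genes reach 27.1% at most.

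In the alpha ring, whose subunits gate entry to the core, PAB1 (AT1G16470) had the member peaks of highest percentile in both mta lists. Its 3' UTR peak scored 77 and 134 in mta replicates 1 and 2, at percentiles 98.1 and 99.5 of those lists, and 69 and 35 in WT replicates 1 and 2. Scores of different lists are on scales of unknown relation and the lists differ in length, so each score or percentile ranks a peak within its own list only and shows no change between genotypes. The mta peaks lay on chromosome 1 from 5625503 to 5625586 and from 5625519 to 5625585, inside the WT replicate 1 peak from 5625470 to 5625612. PAE2 (AT3G14290) had a peak that scored 14 in mta replicate 1, at percentile 1.91 of that list, and none in mta replicate 2. In WT its peak scored 143 and 50, at percentiles 98.7 and 94.6 of those lists.

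PAG1 (AT2G27020) had different regions in the genotypes. In mta its peaks lay in the coding sequence, at -288 and -371 nt in replicate 1 and at -294 nt in replicate 2, counted along the spliced transcript from the end of the stop codon. Their scores were 38, 20 and 35. In WT it had 1 peak, in the 3' UTR 84 nt past the stop codon, with a score of 28 in replicate 1 and none in replicate 2. PAD2 (AT5G66140) likewise had its mta peak in coding sequence, at -67 nt, with a score of 30 in replicate 1 alone. That peak met the 3' UTR peak of WT replicate 2 that lay 11 nt past the stop codon and scored 36. The other WT peaks of PAD2 scored 55 in replicate 1 and 20 in replicate 2. Its paralog PAD1 (AT3G51260) had 2 separate 3' UTR regions in both WT lists, and the mta replicate 1 peak, which scored 19, met the farther of them, at 227 nt in mta against 242 and 249 nt in WT. In WT the nearer region of PAD1 scored 85 and 25. The farther one scored 15 and 13, at percentiles 2.43 and 0.228 of those lists.

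The other alpha-ring genes had no mta peak. PAA2 scored 97 and 45 in WT, PAE1 95 and 43, and PAF2 69 and 33, each in the 3' UTR. PAA1, PAC1 and PAF1 had peaks in WT replicate 1 alone, with best scores of 30, 24 and 21. PAA1 had 3 neighbouring 3' UTR peaks there, at 10, 85 and 181 nt past the stop codon.

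In the beta ring, which holds the proteolytic sites, PBE1 (AT1G13060), the chymotrypsin-like subunit, had the most regions in mta. Each mta list held 3 peaks on it. The pair in the 5' UTR, on chromosome 1 from 4452296 to 4452373 and from 4452294 to 4452375, scored 54 and 84 in mta and met no peak in WT. The pair in coding sequence scored 48 and 46 in mta and met a peak of WT replicate 2 that scored 27. The 3' UTR pair scored 71 and 100 in mta, at percentiles 96.8 and 96.2, and 102 and 18 in WT, at percentiles 89.4 and 6.92.

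PBC2 (AT1G77440) had a 3' UTR peak in every list, with scores of 33 and 52 in mta and 59 and 58 in WT. The mta peaks covered the end of the WT region nearer to the stop codon, with midpoints at 113 and 116 nt in mta and 162 and 158 nt in WT. Its paralog PBC1 (AT1G21720) had 2 peaks in mta replicate 1, with scores of 46 in the coding sequence and 43 in the 3' UTR, and none in replicate 2. In WT it scored 102 and 58, at percentiles 89.4 and 99.6. PBB2 (AT5G40580) had a coding-sequence peak in mta replicate 1 with a score of 17 and a 3' UTR peak in WT replicate 1 with a score of 14, both in the lowest 10% of their lists. PBD2 had peaks in WT alone, and PBD1 in WT replicate 1 alone. PBG1 had no peak in any list.

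**Figure D3:**
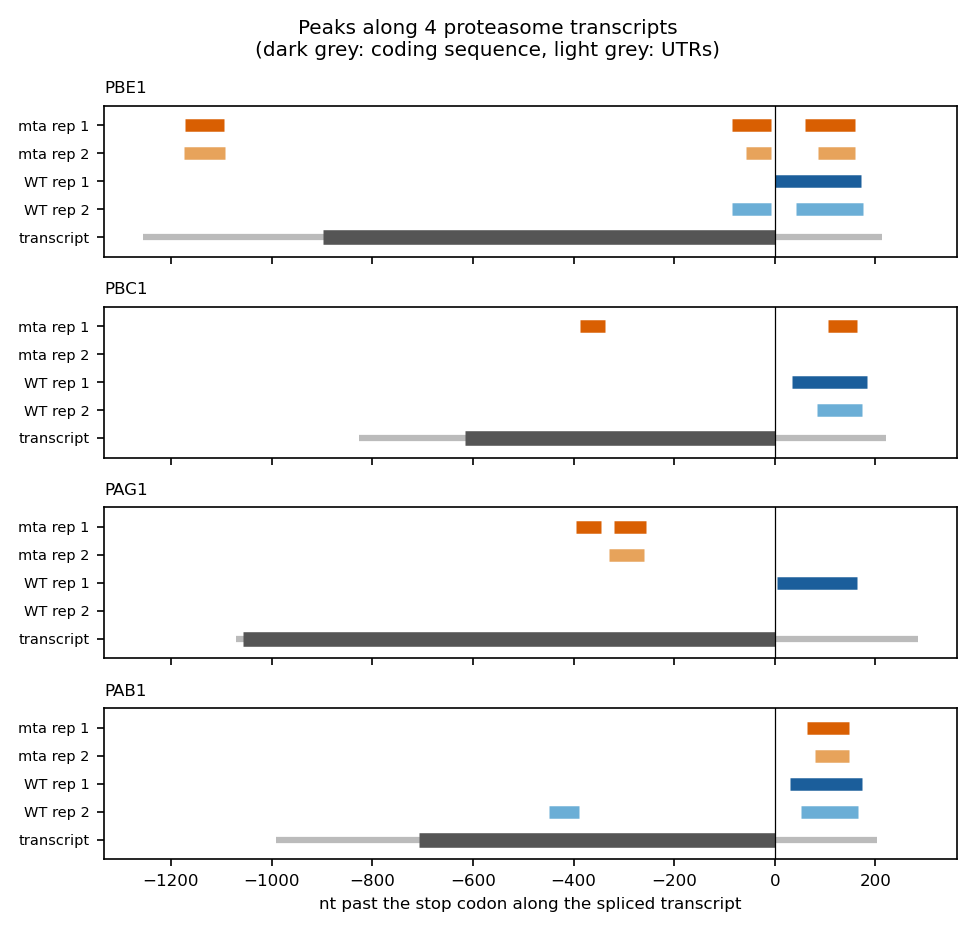
Peaks along the spliced transcripts of PBE1, PBC1, PAG1 and PAB1, drawn at their genomic width about the midpoint, with the distance from the stop codon in nt on the x axis and 1 row per library (orange mta, blue WT). In PBE1 and PAG1 mta peaks lie before the stop codon where WT replicate 1 has none, and in PAB1 all 4 libraries share the 3' UTR region.

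In the 19S particle, the genes with the highest percentiles in WT had 1 mta peak or none. AT2G32730, annotated as the Rpn2 subunit, a scaffold of the 19S base, had the highest mean percentile of all members, with scores of 152 and 50 in WT. Its WT peaks lay 82 and 98 nt past the stop codon. Its only mta peak scored 24, at percentile 1.48 of replicate 2, and lay in the coding sequence at -1097 nt. The other Rpn2 gene, AT1G04810, scored 62 and 28 in WT and had none in mta. RPN1A (AT2G20580), another base scaffold, scored 125 and 50 in WT at 111 and 98 nt past the stop codon and had no mta peak, and its paralog RPN1B had a peak in WT replicate 1 alone.

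AT5G57950, annotated as a regulatory subunit, scored 75 in mta replicate 2, at percentile 86.0, and 36 and 35 in WT. Its mta midpoint lay at 80 nt past the stop codon and its WT midpoints at 157 and 150 nt. The mta peak ended on the base where the WT replicate 2 peak began. EMB2107, annotated as RPN5, scored 83 and 30 in WT, AT4G24820 (Rpn7, of the lid) 13 and 24, and the ATPase gene AT1G53780 31 and 28, and these had no mta peak. RPT5B and AT4G08140 had none in any list. AT4G08140 has no annotated 3' UTR.

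Assembly factors included a region common to all libraries. AT1G48170, annotated as an assembly chaperone, scored 62 and 88 in mta, at percentiles 93.4 and 93.0, and 69 and 43 in WT, with midpoints between 86 and 105 nt past the stop codon. AT1G67250, a UMP1 maturation factor that helps the core assemble, scored 47 in mta replicate 1 and 81 and 41 in WT. AT3G53970, annotated as inhibitor-like, scored 30 in mta replicate 2, at percentile 5.11, and had 2 regions in both WT lists. The mta peak met the region nearer to the stop codon, which scored 24 and 28 in WT. The farther region scored 49 and 35. PA200, an activator that binds the end of the core, scored 93 and 35 in WT and AT5G14710, annotated as an assembly chaperone-like protein, 70 and 42, with no mta peak. AT1G48530 and AT1G62920 had no peak. The second UMP1 gene, AT5G38650, counts here as without one, since its 3 WT peaks lay where its exons overlap those of AT5G38660 on the same strand.

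Among the COP9 signalosome genes, FUS5 (CSN7) had a 3' UTR peak in every list, with scores of 24 and 59 in mta and 78 and 48 in WT. Its midpoints lay close together, at 92 and 111 nt past the stop codon in mta and 102 and 103 nt in WT. FUS12 (CSN2) scored 144 and 20 in WT, and COP13 (CSN3) and COP8 (CSN4) had peaks in WT replicate 1 alone, with no mta peak on the 3 genes. EER5 had a coding-sequence peak in mta replicate 2 that scored 42 and a 3' UTR peak in WT replicate 1 that scored 41. Of the PCI genes without a symbol, AT3G02200 scored 108 and 50 in WT, AT5G15610 100 and 35, AT5G45620 90 and 28, and AT4G19006 79 and 42, and 0 of the 4 had an mta peak.

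Where the regions lay differed between genotypes in the lists as deposited. The 45 genes had 28 peaks in mta and 79 in WT. In 3' UTRs lay 9 of 16 and 7 of 12 placed peaks of mta replicates 1 and 2 (57.3% ± 1.47; SD, n = 2), and 43 of 44 and 32 of 35 of WT (94.6% ± 4.45; SD, n = 2). The same shares over all protein-coding genes were 53.5% and 44.6% in mta and 91.5% and 90.8% in WT. With scores of at least 50, which leaves fewer peaks, the mean member shares were closer, 80.4% in mta and 98.2% in WT. Coding sequence held 6 and 4 member peaks in mta and 1 and 3 in WT, the WT ones on RPN1A in replicate 1 and on PAB1, PBE1 and AT5G15610 in replicate 2, and the 5' UTR held 1 in each mta list, both on PBE1. For 5 of the 16 members with an mta peak, mta had no 3' UTR peak at all: EER5, PAG1, PAD2, PBB2 and AT2G32730. Among all genes with an mta peak this was the case for 50.1%.

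Peaks of mta in 3' UTRs met regions also called in WT, in AT5G57950 by 1 bp and in WT replicate 2 alone. All 16 of them met a WT peak by at least 1 bp, against 79.9% and 75.8% of the 3' UTR peaks of all genes in mta replicates 1 and 2. Of the mta peaks in coding sequence, 3 of 10 met one, against 13.5% and 8.02% of those of all genes in mta replicates 1 and 2. The widths were compared where peaks met. Over 15 pairs of an mta peak and the WT replicate 1 peak it met, on 10 genes, the mta peak was narrower in 15 and lay wholly inside in 12, with median widths of 66 bp in mta and 143 bp in WT. Against WT replicate 2, 16 of 19 were narrower and 12 lay inside, with medians of 65 bp in mta and 111 bp in WT, and the 3 that were not narrower were both AT1G48170 peaks and a PBE1 peak. Over all protein-coding genes, 89.4% and 89.2% of such mta peaks were narrower than the peak of WT replicates 1 and 2 they met. Of these mta peaks of all genes, 62.9% and 53.0% lay wholly inside the peak they met. Their median widths were 57 bp in mta against 122 bp in WT replicate 1, and 57 bp against 113 bp in WT replicate 2. Midpoints of the 15 pairs shifted by between -49 and 37 nt (mta minus WT).

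Positions are given in nt past the stop codon. In 3' UTRs the median was 105 and 111 nt in mta and 102 and 107 nt in WT, where all protein-coding genes had 115 and 115 nt in mta and 119 and 118 nt in WT. The best WT replicate 1 peak lay between 40 and 200 nt past the stop codon in 38 of 39 members (97.4%), from 43 nt in EMB2107 to 203 nt in COP8, against 79.1% over all protein-coding genes. The limits of 40 and 200 nt were set after the values were seen. The quartiles were 83.5 and 156.5 nt in members and 81 and 165 nt over all genes. Best 3' UTR midpoints of the WT replicates differed by a median of 7 nt over 29 members and by more than 50 nt in 1, PAD2. Annotated 3' UTRs had a median of 260 nt in the 45 members and 223 nt over all protein-coding genes. Those of members with a peak in both WT lists ran from 128 to 611 nt.

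**Figure D4:**
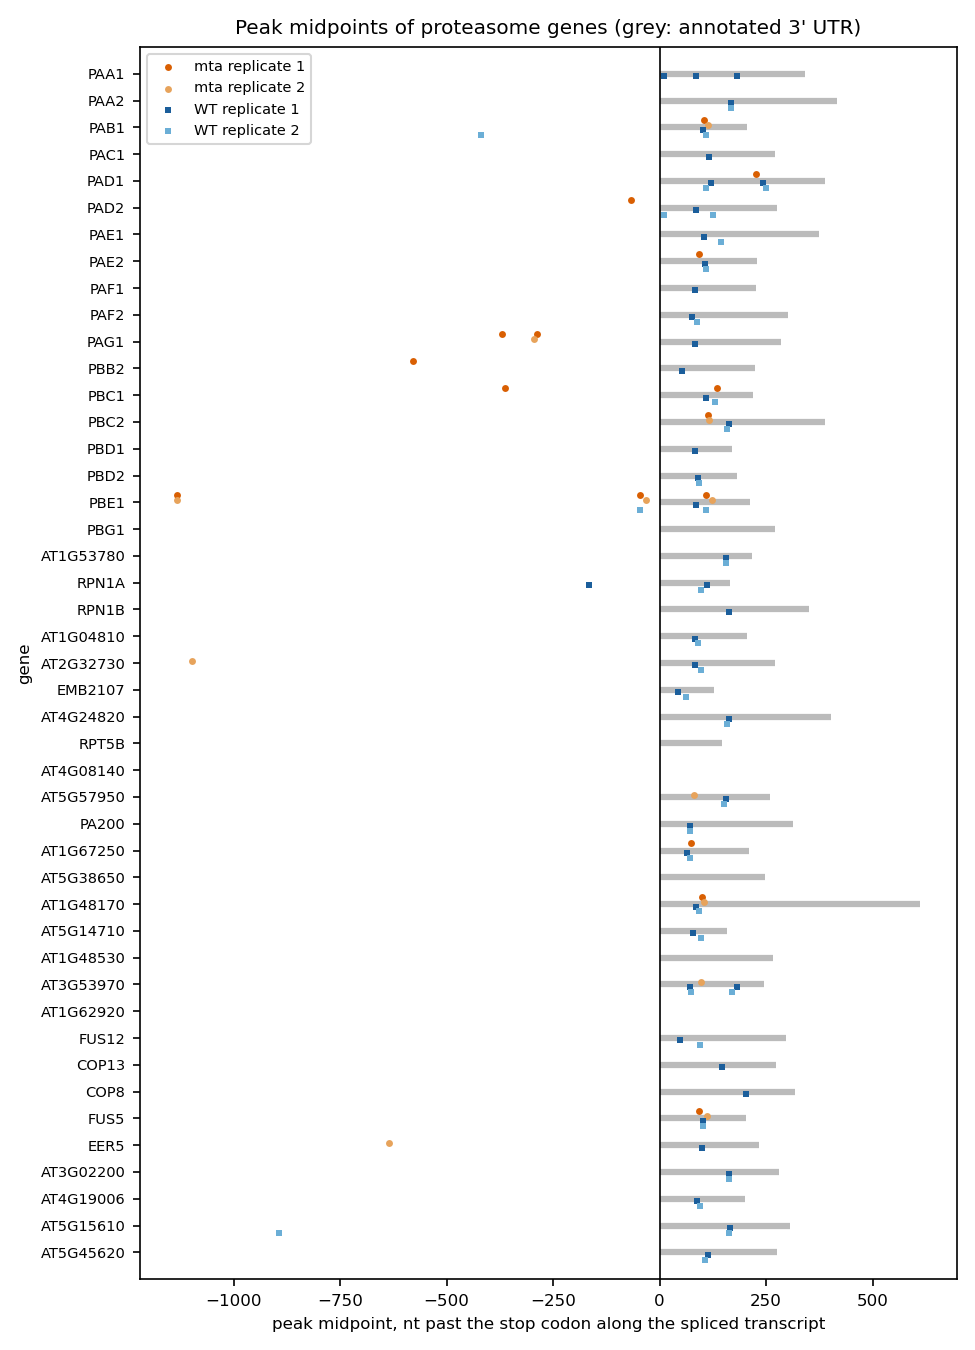
Midpoints of all member peaks (x axis, nt past the stop codon along the spliced transcript; y axis, genes), with orange circles for mta and blue squares for WT, and grey bars for the annotated 3' UTR. WT squares sit between 10 and 249 nt past the stop codon in all but 4 cases, and mta circles also lie far before the stop codon.

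Paralogs of the same subunit did not always match. Among 9 pairs of members, both copies had a peak in both WT lists in 4 pairs (PAD, PAE, PBC and RPN2) and 1 copy did in 5 (PAA, PAF, PBD, RPN1 and UMP1). In mta, both copies had a peak in 2 pairs (PAD and PBC), 1 copy in 3 and no copy in 4. How reads matching both copies were handled is not given in the sources used here, so such splits are uncertain. The UMP1 split comes from the assignment rule: AT5G38650 counts as having a peak in both WT lists when a midpoint is counted for each gene it falls in.

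Motifs near member peaks were counted against all peaks on protein-coding genes, in windows of the same length. RRACH lay within 50 nt of the midpoint of 11 of 16 and 8 of 12 member peaks in mta, and of 34 of 44 and 27 of 35 in WT. The shares over all genes were 72.1% and 73.6% in mta and 77.1% and 77.3% in WT. URUAY lay near 43.8% and 41.7% of member peaks in mta and 40.9% and 48.6% in WT, against 44.7% and 40.9% of all peaks in mta and 57.2% and 56.9% in WT. Matches describe the letters in the window and mark no modified base.

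Subunit genes outside the text rule, chosen after values were seen, are given here for comparison with the members. Of 19 such genes, 3 and 2 were found in mta replicates 1 and 2 (15.8% and 10.5%, against 5.62% and 6.01% of all genes). In WT replicates 1 and 2, 17 and 13 of the 19 were found, where the shares of all genes were 27.1% and 20.3%. In both WT lists were 13 (68.4%, against 18.9%), and 10 of the 13 had no mta peak (76.9%, against 74.1%). The members, with 55.2%, were below this, and the difference was not tested. RPN10, the ubiquitin receptor, had a 3' UTR peak in all 4 lists, with scores of 69 and 53 in mta and 121 and 31 in WT. PBF1, a beta subunit, had coding-sequence peaks in both mta lists, with scores of 53 and 37, and 3' UTR peaks in WT with scores of 28 and 20. DSS1(V) had a peak in mta replicate 1 and both WT lists. RPN12b and RPN5B had none.

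Other genes of the ubiquitin pathway were listed by symbol, and 53 genes outside the members were matched. Of these, 8 and 7 were found in mta replicates 1 and 2 (15.1% and 13.2%, against 5.62% and 6.01% of all genes). In WT replicates 1 and 2, 31 and 26 of the 53 were found, where the shares of all genes were 27.1% and 20.3%. A peak in both WT lists was found for 24 (45.3%, against 18.9% of all genes), and 17 of the 24 had none in mta (70.8%, against 74.1%). UBP6, a deubiquitinase that binds the proteasome, scored 144 and 50 in WT alone, as did DDB1A, an adaptor of CUL4 ligases, with 118 and 50, and UBP14 with 93 and 42. The deubiquitinase AMSH1 scored 35 in mta replicate 1 and 126 and 42 in WT. RAD23D, a shuttle that carries ubiquitylated proteins, scored 26 in mta replicate 1 and 97 and 47 in WT. The signalosome genes CSN8 and CSN5A had 1 mta list each, CSN8 with a score of 71 in mta replicate 2 and 109 and 42 in WT, and CSN5A with 24 in mta replicate 1 and 101 and 42 in WT. DDI1, a shuttle, scored 85 and 42 in WT, PUX4 and PUX3, cofactors of the CDC48 segregase, 94 and 36 and 117 and 29, the hydrolase UCH3 105 and 29, and the ligase scaffold CUL3A 72 and 35, with no mta peak on these 5 genes.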

How the data were processed

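The submitters' processing notes name STAR 2.4.0, MACS2 and TAIR10 in no stated role, and the calling threshold and control were not known here. The deposited lists hold 6 columns without a header, among them position, strand and the authors' whole-number score, whose scale is unknown. Peak names show that each library and strand was called alone; those of mta replicate 2 are built differently, and its lowest score is 20 against 13 elsewhere. All 19528 nuclear peaks end within their TAIR10.1 chromosome, and 97.8% have their midpoint in a same-strand exon.

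A gene has a peak when a midpoint lies in its same-strand exons and in those of no other gene. Positions refer to the transcript with the longest coding sequence. Score percentiles are within a list, both strands together. The members and lists were chosen with earlier results of these data known. The best score in each list with a peak was given for members with an mta peak and the 12 highest in mean WT percentile. Positions were given for some of these. The remaining members are given more briefly, and up to 12 pathway genes are named by the same ranking. Placement was tested on simulated data (Python 3.11.15, scipy 1.17.1). Depth per library is unknown, and intervals cover counting error only. The alternatives were a score minimum, list length, assignment rule, gene model, motif window and leaving out each library.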

Additional observations from a re-analysis of the deposited data

How the results depend on the processing

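Of 85 values under 17 alternatives, 60 stayed near the reported ones and 25 moved. The order of genotypes or lists turned in 2 comparisons. RRACH shares, 67.7% in mta and 77.2% in WT within 50 nt, were slightly higher in mta within 25 nt. The members' share without an mta peak was 55.2% against 74.1% of all genes. It was above that of all genes with shortened lists (71.4% against 70.4%) and with scores of at least 50 (83.3% against 80.1%), where it rests on 7 and 6 members. With scores of at least 50, a cut near the highest scores of WT replicate 2, members with a peak numbered 3 and 6 in mta and 6 in WT replicate 2. Of the members, 6 had peaks in both WT lists, 5 of these had none in mta, and 6 had an mta peak. The 3' UTR share was then 80.4% in mta and 98.2% in WT. With lists shortened, mta replicates had 12 and 8 and WT replicates 14 and 13, both WT lists 7, and 5 of these lacked an mta peak. With 20S and 19S genes alone, the numbers were 6 in mta replicate 2, 25 and 18 in WT, 18 in both WT lists and 9 without an mta peak, since fewer genes were counted. Leaving out single libraries, members with an mta peak ranged from 10 to 16. Members with a peak in every WT list that was kept ranged from 29 to 39, and those of them without an mta peak from 16 to 23. With 1 WT list left out, a peak in the other was enough, so 39 and 23 refer to WT replicate 1 alone. On the longest spliced transcripts, 3' UTR peaks lay a median of 113 nt past the stop codon in mta and 110 nt in WT. RRACH shares were 54.2% in mta and 53.6% in WT within 25 nt, 70.8% and 91.2% within 100 nt, and with DRACH (D is A, G or U) 85.4% and 89.7%. Over all protein-coding genes, RRACH lay within 25 nt in 50.1% and 52.7% of peaks in mta and 55.7% and 56.9% in WT. Within 100 nt these shares were 88.9% and 89.9% in mta and 92.3% and 92.3% in WT. For the count over all protein-coding genes (mta minus WT, -4909), the replicate block, which pairs libraries by number, gave exact p = 0.5, the smallest 2 pairs allow, and the same difference of -4909; the labels do not say that numbers mark shared material. The causes of moves other than those of fewer genes or peaks were not tested.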

Other observations

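Members on the 2 strands differed in how often WT replicate 2 shared a region with WT replicate 1, a pattern noticed after the values were seen. On the minus strand 9 of the 19 members with a peak in WT replicate 1 had none in WT replicate 2, and on the plus strand 1 of 20. Over all protein-coding genes the shares were 31.2% on the minus strand and 29.1% on the plus strand, and 30.1% together. The minus-strand members were COP8, EER5, PAA1, PAC1, PAF1, PAG1, PBB2, PBD1 and RPN1B, and the plus-strand member was COP13. The highest score of WT replicate 2 was 50 on the minus and 58 on the plus strand, and its median score was 29 on each strand. No test was made of this split. The minus-strand members include PAA1, PAF1, PBD1 and RPN1B, each the copy of its pair without a peak in both WT lists.

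Motif counts of the 5 members with a peak in all 4 lists rest on few genes and were not tested. Of the 5, RRACH lay within 50 nt of the best 3' UTR midpoint of WT replicate 1 in 1, PAB1, and URUAY in 4. PBC2, another of the 5, had RRACH within 50 nt of both its mta midpoints, which lay inside its WT region. Among the 16 members with peaks in both WT lists and none in mta, RRACH lay there in 12 and URUAY in 7. Over all protein-coding genes with peaks in all 4 lists, RRACH was found for 76.5% of 510 and URUAY for 64.5%, and over those with none in mta for 78.8% and 61.0%.

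Among ubiquitin genes, 4 of 13 had a peak in either mta list (30.8%, against 8.58% of all protein-coding genes) and 1 had one in both WT lists (7.69%, against 18.9%). UBQ13, chosen after its values were seen, had 2 and 3 peaks in mta, with best scores of 94 and 125, and 1 in WT replicate 1, with a score of 43. Polyubiquitin copies are near-identical, so these values may not belong to that gene alone.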
